A study of Mus musculus with 12 samples.

Results

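The genotype by RANKL interaction is the difference between the RANKL response of *Mir182*ΔM/ΔM bone marrow macrophages (BMMs) and the RANKL response of wild-type (WT) BMMs. It was computed for each gene as the *Mir182*ΔM/ΔM change from basal to RANKL minus the WT change, so that a negative value is a weaker induction or a deeper repression in the cells that lack *Mir182*. The contrast used 8 of the 12 RNA-seq libraries, in 4 groups of 2 replicates, and covered 11673 of 24394 gene names, those with at least 1 CPM, the reads of a gene scaled to a common library total, in at least 2 of the 8 libraries. By the genotypes given, all mice carried *LysMcre*(+), a Cre driven by the lysozyme M promoter, which is active in myeloid cells. The *LysMcre* line was on the C57BL/6 background. Whether all libraries share that background was not tested. WT mice were *Mir182*+/+ *LysMcre*(+) and *Mir182*ΔM/ΔM mice were *Mir182*flox/flox *LysMcre*(+), in which Cre removes *Mir182* in the myeloid lineage. BMMs were grown from marrow with M-CSF for 3 days and then kept without RANKL (basal) or given RANKL for 5 days. A further 4 libraries, basal BMMs of *LysMcre*(+) mice (Control) and of LSL-*Mir182* *LysMcre*(+) mice that overexpress miR-182 (*Mir182*mTg), were used as outside readouts. Age and sex of the mice were not given in the sources used here.

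RANKL binds its receptor RANK on macrophages, and with M-CSF it turns them into osteoclasts, the multinucleated cells that resorb bone. NF-κB and AP-1 factors act first and lead to expression of NFATc1, the transcription factor that switches on fusion and resorption genes, while Blimp1, the product of *Prdm1*, silences genes that oppose the program. Type I interferon works against it: interferon-β made by the precursors binds IFNAR1 and IFNAR2, activates a complex that holds IRF9, and induces antiviral genes through a promoter element called the ISRE. A microRNA lowers its targets through pairing of its seed, bases 2 to 7 or 2 to 8, with the 3′ UTR of an mRNA.

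The mature microRNA that the *Mir182*ΔM/ΔM cells lack is shown first because its seed was searched in the classes of genes described further on. It is printed 5′ to 3′ from RefSeq, with the seed in capitals, and it lies on the minus strand at chr6:30165962-30165986 (GRCm38.p6).
miR-182-5p: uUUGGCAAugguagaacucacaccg

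Each of the 8 libraries held 24951280 to 32708389 reads on genes, and 3 reads correspond to 0.0917 to 0.120 CPM. The methods give poly-A selection, which does not show the small RNA, although the labels of replicate 2 give total RNA. *Mir182* was at 0 to 0.037 CPM in all 8 libraries, so the deletion could not be checked. In *Lyz2* and *Ifi202b* the WT RANKL libraries stood apart from the other 6. *Lyz2*, the gene into which *LysMcre* is inserted, was at 44 and 39.8 CPM in WT basal, 4117 and 4288 in WT RANKL, 34.6 and 31.2 in *Mir182*ΔM/ΔM basal libraries, and 24 and 22.5 after RANKL in *Mir182*ΔM/ΔM, and it was at 5783 and 6615 CPM in Control basal. *Ifi202b*, an interferon-inducible gene, was at 112 and 93.4 CPM in WT basal, 1.12 and 0.972 in WT RANKL, 101 and 82.1 in *Mir182*ΔM/ΔM basal libraries, and 152 and 143 after RANKL in *Mir182*ΔM/ΔM, and at 0 in both Control basal libraries. In these genes the WT RANKL libraries were like the Control and not like the WT basal libraries. The interaction rests on them, and they cannot be replaced. Therefore the counts of the classes and of most gene lists are also given with Control basal in place of WT basal. The fold changes of the *Mir182*ΔM/ΔM response use no WT library. WT basal also stood apart from *Mir182*ΔM/ΔM basal in the interferon-response genes *Ifi44* and *Ifi44l*, with log2 differences of -2.33 and -4.51 between the genotypes at baseline. The source of these differences was not tested. What the genotype and the origin of the WT RANKL libraries each contribute cannot be told apart.

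Osteoclast markers, 10 genes in all, summed to 144 to 173 CPM in WT basal, 150.0 to 182 in *Mir182*ΔM/ΔM basal, 10643 to 10857 in WT RANKL and 3253 to 3285 in *Mir182*ΔM/ΔM RANKL. The level of both genotypes rose with RANKL and the WT and *Mir182*ΔM/ΔM RANKL libraries did not overlap. In bulk RNA, fewer osteoclasts and less osteoclast RNA per cell cannot be told apart. Macrophage markers, 8 genes including *Lyz2*, summed to 8508 to 8699 CPM in WT basal and 9861 to 9972 in WT RANKL. They summed to 7655 to 7663 in *Mir182*ΔM/ΔM basal and 6034 to 6121 in *Mir182*ΔM/ΔM RANKL. The WT RANKL sums include the high *Lyz2* values given above. Neutrophil markers summed to 91.5 to 116 CPM in the 4 basal libraries, 22.7 to 23.4 in WT RANKL and 7.59 to 7.67 in *Mir182*ΔM/ΔM RANKL. Markers of T and NK cells, B cells, erythroid cells and mast cells summed to at most 17 CPM in each list. The dendritic cell list was 72.9 to 107 CPM in WT RANKL and 375 to 553 in *Mir182*ΔM/ΔM RANKL, and it includes *Bst2*, which is also an interferon-response gene. The part of other cell types in the interaction was not tested.

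The interaction was called for 1885 genes higher (16.1% of those tested) and 4993 lower (42.8%) in limma at an adjusted p under 0.05. At least 2-fold was reached by 363 higher (3.11%) and 650 lower (5.57%), and 4-fold by 211 in both directions together. The split depended on the scaling. The median interaction of all genes was -0.15 on the log2 scale with CPM and 0.0014 with TMM factors, a shift of 0.15, and with TMM factors 3107 genes were higher (26.6%) and 2933 lower (25.1%). With Control basal in place of WT basal the counts were 3998 higher (34.2%) and 4604 lower (39.4%) of 11687 genes, and the median of all genes was -0.059. These shares and medians are the background for the gene lists described further on. All differences are of log2(CPM + 1), which understates the change of low genes. Nothing in the labels says whether replicates are separate animals, and p-values measure the spread between these samples.

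WT cells induced 1440 genes at least 2-fold (12.3% of those tested) and repressed 812 (6.96%), whereas *Mir182*ΔM/ΔM cells induced 948 (8.12%) and repressed 900 (7.71%). The order of the repressed counts turned with TMM factors, with 1098 induced and 1121 repressed in WT and 891 and 957 in *Mir182*ΔM/ΔM cells. With Control basal WT cells induced 979 and repressed 580, so that the induced counts of the genotypes came close. Across genes the log2 responses of the genotypes, which share no library, had a Pearson r of 0.78, given as a description. The genes induced in WT had a median response of 1.48 in WT and 0.94 in *Mir182*ΔM/ΔM cells, and 84.9% of the 1440 responded less in *Mir182*ΔM/ΔM cells. The 948 genes induced in *Mir182*ΔM/ΔM cells had medians of 1.48 in *Mir182*ΔM/ΔM and 1.45 in WT cells, and 52.4% of them responded less in WT. Each set was chosen for its response in 1 genotype, and these shares are a description. For the 812 genes repressed in WT the medians were -1.43 and -1.34.

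**Figure D1:**
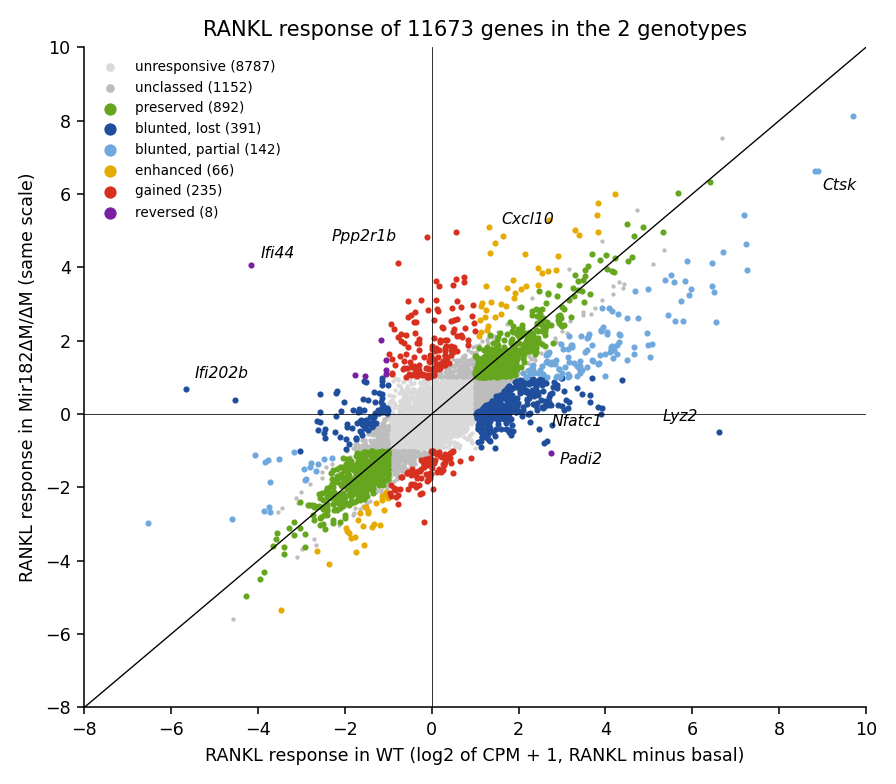
Each point is 1 of the 11673 genes, with the log2 RANKL response in WT cells on the x axis and that in *Mir182*ΔM/ΔM cells on the y axis, coloured by class, and the line marks equal responses. The 433 genes with blunted induction lie below the line on the right, among 1222 of the 1440 WT-induced genes that lie below it, and the labelled *Ppp2r1b*, *Cxcl10* and *Ifi44* sit far above it.

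Genes were then sorted by calling a response, and the interaction, at an adjusted p under 0.05 and at least 2-fold. A blunted response is one called in WT with a weaker response in *Mir182*ΔM/ΔM cells, and it is lost where the *Mir182*ΔM/ΔM response was not called at 2-fold and partial where it was. Gained responses were called in *Mir182*ΔM/ΔM cells alone, enhanced ones in both and more strongly in *Mir182*ΔM/ΔM cells, and reversed ones in opposite directions. A preserved response was called in both with the 95% interval of the interaction inside a 2-fold change either way. Of the 1440 genes induced in WT, 433 were blunted (30.1%), with 311 lost and 122 partial, and 440 were preserved (30.6%). Of the 812 genes repressed in WT, 100 were blunted (12.3%) and 452 preserved (55.7%). Another 148 genes gained an induction, 87 gained a repression, 66 were enhanced and 8 were reversed. The remaining responsive genes, 654 induced and 498 repressed, fell between these definitions, and 8787 did not respond at 2-fold in either genotype. Class values come from the contrasts that made the classes and are a description.

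The smallest differences that still counted were near 2-fold by construction. *Arhgef5*, a guanine nucleotide exchange factor, lay just inside with an interaction of -1.0 and *Uck2*, a uridine-cytidine kinase, just outside with -1.0.

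**Figure D2:**
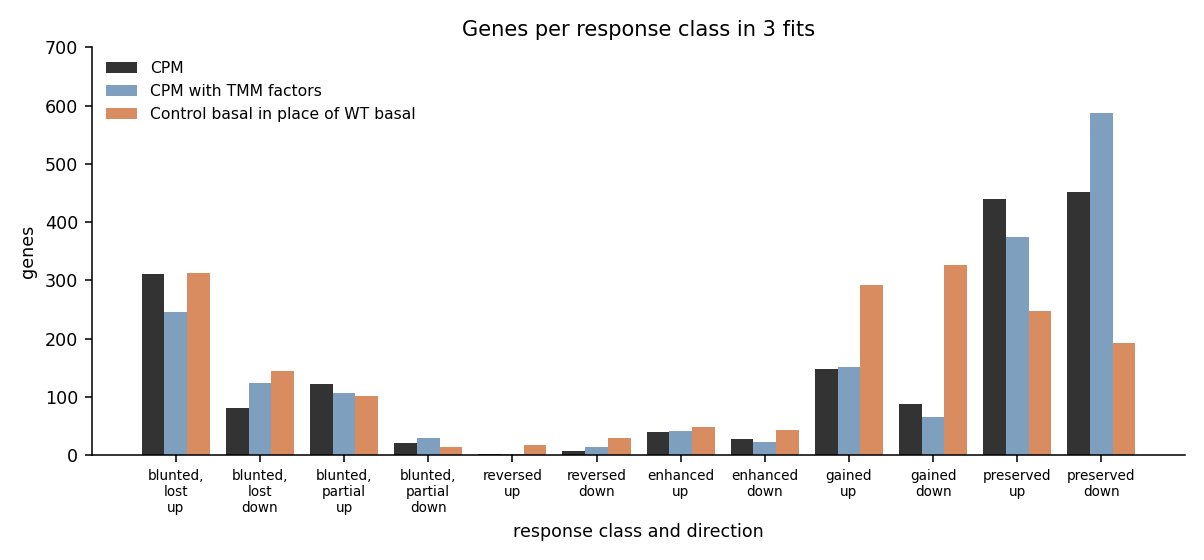
Bars give the number of genes in each class (y axis) and direction for CPM scaling, TMM factors and Control basal in place of WT basal. Blunted repression rises from 100 with CPM to 153 with TMM and 158 with Control basal, and preserved repression falls from 452 to 192 with Control basal.

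Osteoclast genes were followed through their roles, beginning with transcription factors. *Nfatc1*, the master transcription factor of osteoclasts, was at 104 and 91.9 CPM in WT basal, 647 and 523 in WT RANKL, 107 and 90.3 in *Mir182*ΔM/ΔM basal libraries, and 122 and 100.5 after RANKL in *Mir182*ΔM/ΔM. Both WT RANKL libraries lay far above the other 6, which overlapped. The interaction was -2.38 ± 0.051 (SE, adjusted p = 6.59e-19), from a WT response of 2.56 and a *Mir182*ΔM/ΔM response of 0.18. *Prdm1* (chr10:44437177-44528501, GRCm38, minus strand), which encodes Blimp1, was at 11.9 and 9.70 CPM in WT basal, 179 and 166 in WT RANKL, 8.81 and 8.02 in *Mir182*ΔM/ΔM basal libraries, and 29.2 and 25.9 after RANKL in *Mir182*ΔM/ΔM. *Mir182*ΔM/ΔM RANKL libraries stood above both basal groups and below WT RANKL. Its interaction was -2.28 ± 0.09 (SE, adjusted p = 1.28e-14). *Fosl2*, an AP-1 subunit, had an interaction of -2.63 and rose from 28.9 and 28.1 to 93 and 88.9 CPM in *Mir182*ΔM/ΔM cells against 499.8 and 502 CPM in WT RANKL.

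*Id3*, an inhibitor of helix-loop-helix factors, went the other way within the same list. It was at 0.948 and 1.24 CPM in WT basal, 1.08 and 1.40 in WT RANKL, 0.925 and 0.97 in *Mir182*ΔM/ΔM basal libraries, and 20.3 and 26.2 after RANKL in *Mir182*ΔM/ΔM, so that only the *Mir182*ΔM/ΔM RANKL libraries of the 8 were above 2 CPM. The interaction was 3.53 ± 0.17 (SE, adjusted p = 2.60e-13). Control basal libraries, however, held 49.6 and 69.5 CPM. *Fosl1*, another AP-1 subunit, was higher by 1.59, and with Control basal it counted as a reversed repression. Of the 28 osteoclast transcription factors tested, 8 were higher and 14 lower in the interaction with a median of -0.17, and with TMM factors 12 were higher and 11 lower with a median of -0.011. Control basal gave 10 and 14. The share lower and the median are near those of all genes with CPM. Of its genes 12 were induced 2-fold in WT and 10 in *Mir182*ΔM/ΔM cells.

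Cell fusion turns precursors into multinucleated osteoclasts. *Dcstamp*, a membrane protein needed for fusion, was at 0.306 and 0.16 CPM in WT basal, 162 and 210.1 in WT RANKL, 0.444 and 0.224 in *Mir182*ΔM/ΔM basal libraries, and 27.7 and 36.8 after RANKL in *Mir182*ΔM/ΔM. It rose in both genotypes and the RANKL groups did not overlap. The interaction was -2.60 ± 0.18 (SE, adjusted p = 1.31e-10). *Ocstamp*, its close relative, had an interaction of -2.31 with 96.5 and 117 CPM in WT RANKL and 22.2 and 22.7 in *Mir182*ΔM/ΔM RANKL. *Atp6v0d2*, a V-ATPase subunit with a part in fusion, was at 39 and 30 CPM in WT basal, 718 and 553 in WT RANKL, 41.6 and 31.9 in *Mir182*ΔM/ΔM basal libraries, and 118 and 95.7 after RANKL in *Mir182*ΔM/ΔM, with an interaction of -2.64. Of 12 fusion genes tested 9 were lower and 3 higher, with a median of -0.80, and TMM factors gave 8 and 3. With Control basal 7 were lower and 5 higher, median -0.82. Those higher included *Adam8*, a surface protease, at 1173 and 1209 CPM in WT basal, 764 and 829.8 in WT RANKL, 1552 and 1657 in *Mir182*ΔM/ΔM basal libraries, and 2114 and 2207 after RANKL in *Mir182*ΔM/ΔM, and *Cd47*, the ligand of SIRPα, which was higher by 0.83.

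Of 30 resorption genes 9 were induced 2-fold in WT and 6 in *Mir182*ΔM/ΔM cells, and 5 were repressed in WT. *Ctsk*, the collagen-degrading cathepsin K, was at 3.52 and 2.40 CPM in WT basal, 1778 and 1962 in WT RANKL, 4.51 and 4.07 in *Mir182*ΔM/ΔM basal libraries, and 492 and 547 after RANKL in *Mir182*ΔM/ΔM. All 4 RANKL libraries were far above the basal ones, and those of WT were above those of *Mir182*ΔM/ΔM cells. Its log2 response was 8.90 in WT and 6.62 in *Mir182*ΔM/ΔM cells, and the interaction was -2.28 ± 0.12 (SE, adjusted p = 1.07e-12). *Acp5*, which encodes the osteoclast marker TRAP, was at 5.08 and 3.37 CPM in WT basal, 2195 and 2466 in WT RANKL, 5.0 and 3.81 in *Mir182*ΔM/ΔM basal libraries, and 509.8 and 553 after RANKL in *Mir182*ΔM/ΔM, with an interaction of -2.19 ± 0.14 (SE, adjusted p = 1.94e-11) and of -1.13 with Control basal. *Car2*, the carbonic anhydrase that supplies protons, reached 92.1 and 90.1 CPM in WT RANKL and 11.6 and 10.4 in *Mir182*ΔM/ΔM RANKL, and *Mmp14*, a membrane metalloprotease, reached 269 and 304 and 30.1 and 32.2 CPM. In the interaction 23 of the 30 were lower and 6 higher, median -0.48. TMM factors gave 21 and 7, and Control basal 27 and 3. The cathepsins *Ctsl* and *Ctsb* of the lysosome were among those higher. *Ctsl* was at 967 and 1007 CPM in WT basal, 744 and 826 in WT RANKL, 995 and 1098 in *Mir182*ΔM/ΔM basal libraries, and 2009 and 2314 after RANKL in *Mir182*ΔM/ΔM and gained an induction, while *Ctsb* was repressed less, by a log2 response of -2.29 in WT and -1.21 in *Mir182*ΔM/ΔM cells. Their interactions were 1.38 and 1.08, and with Control basal 2.77 and 0.36.

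RANKL signals through RANK to TRAF adaptors, NF-κB and kinases. *Src*, the kinase needed for the ruffled border, was at 1.19 and 0.842 CPM in WT basal, 289 and 302 in WT RANKL, 0.888 and 0.821 in *Mir182*ΔM/ΔM basal libraries, and 78.8 and 79.5 after RANKL in *Mir182*ΔM/ΔM and its interaction was -1.77 ± 0.12 (SE, adjusted p = 4.66e-11). *Traf5*, an adaptor of TNF receptors, lost its induction, from 10.8 and 9.90 to 26.4 and 27.9 CPM in WT and from 10.1 and 11.6 to 7.42 and 9.92 in *Mir182*ΔM/ΔM cells. *Traf3* and *Nfkbie*, which restrain NF-κB and were induced in both genotypes, had interactions of 0.50 and 0.52. In the RANK, M-CSF receptor and NF-κB list of 24 genes, 17 were lower and 3 higher, median -0.25, with TMM factors 12 and 5, and with Control basal 14 and 6. The receptor genes had interactions of -0.22 for *Tnfrsf11a*, which encodes RANK, and -0.14 for *Csf1r*, the M-CSF receptor, named here after their values were seen. With TMM factors these were -0.059 and 0.028, neither of them called, and with Control basal the values were 0.89, of the opposite sign, and -0.41. *Nfkbie* turned as well, to -0.036.

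ITAM-coupled receptors give the costimulation that osteoclasts need. *Oscar*, an ITAM-coupled receptor, was induced in both genotypes with log2 responses of 5.09 in WT and 4.10 in *Mir182*ΔM/ΔM cells. *Syk*, the kinase below these receptors, was at 441 and 408 CPM in WT basal, 667 and 628 in WT RANKL, 394 and 371 in *Mir182*ΔM/ΔM basal libraries, and 341 and 322 after RANKL in *Mir182*ΔM/ΔM, which made an interaction of -0.81 ± 0.039 (SE, adjusted p = 3.16e-13). *Trem2* was repressed less in *Mir182*ΔM/ΔM cells, by 1.09, and *Clec5a* was induced more, by 0.62. Of 17 ITAM genes tested 6 were higher and 4 lower with CPM and 9 and 2 with TMM factors, and with Control basal 7 and 7. For podosome and integrin genes, 23 tested, 14 were lower and 3 higher with a median of -0.15, but TMM factors gave 11 and 8 with a median of 0.0089, and Control basal 12 and 8. *Itga2*, integrin α2, reached 35.8 and 32.1 CPM in WT RANKL and 4.04 and 4.37 in *Mir182*ΔM/ΔM RANKL. *Rac2*, a GTPase of the actin ring, was at 388 and 364 CPM in WT basal, 802 and 766 in WT RANKL, 324 and 332 in *Mir182*ΔM/ΔM basal libraries, and 198 and 190.4 after RANKL in *Mir182*ΔM/ΔM, higher after RANKL in WT and lower in *Mir182*ΔM/ΔM cells.

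Some osteoclast genes were induced in both genotypes. *Calcr*, the calcitonin receptor, was at 0 CPM in both libraries in WT basal, 9.78 and 9.0 in WT RANKL, 0 in both in *Mir182*ΔM/ΔM basal libraries, and 9.07 and 9.68 after RANKL in *Mir182*ΔM/ΔM. The RANKL groups overlapped. Its interaction was -0.0016 with a 95% interval from -0.35 to 0.35. *Itgb3*, integrin β3, was at 14 and 12.4 CPM in WT basal, 58.1 and 59.8 in WT RANKL, 15.7 and 15.6 in *Mir182*ΔM/ΔM basal libraries, and 83.7 and 82.6 after RANKL in *Mir182*ΔM/ΔM, and the interaction of 0.26 ± 0.086 (SE, adjusted p = 0.0139) turned to -0.65 with Control basal. Among the genes with the strongest preserved induction, *Traf1*, an adaptor induced by NF-κB, was at 3.94 and 3.57 CPM in WT basal, 229.7 and 254 in WT RANKL, 3.26 and 2.99 in *Mir182*ΔM/ΔM basal libraries, and 253 and 282 after RANKL in *Mir182*ΔM/ΔM, with an interaction interval from 0.15 to 0.55. *Htra1*, a secreted serine protease, and *Gstt1*, a glutathione transferase, had log2 responses of 5.32 and 4.87 in WT and 4.96 and 5.09 in *Mir182*ΔM/ΔM cells. In all, the osteoclast lists held 133 genes tested, which are 1.14% of all genes tested. They made up 6 of the lost inductions (1.93% of that class), 15 of the partial ones (12.3%) and 15 of the preserved ones (3.41%).

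**Figure D3:**
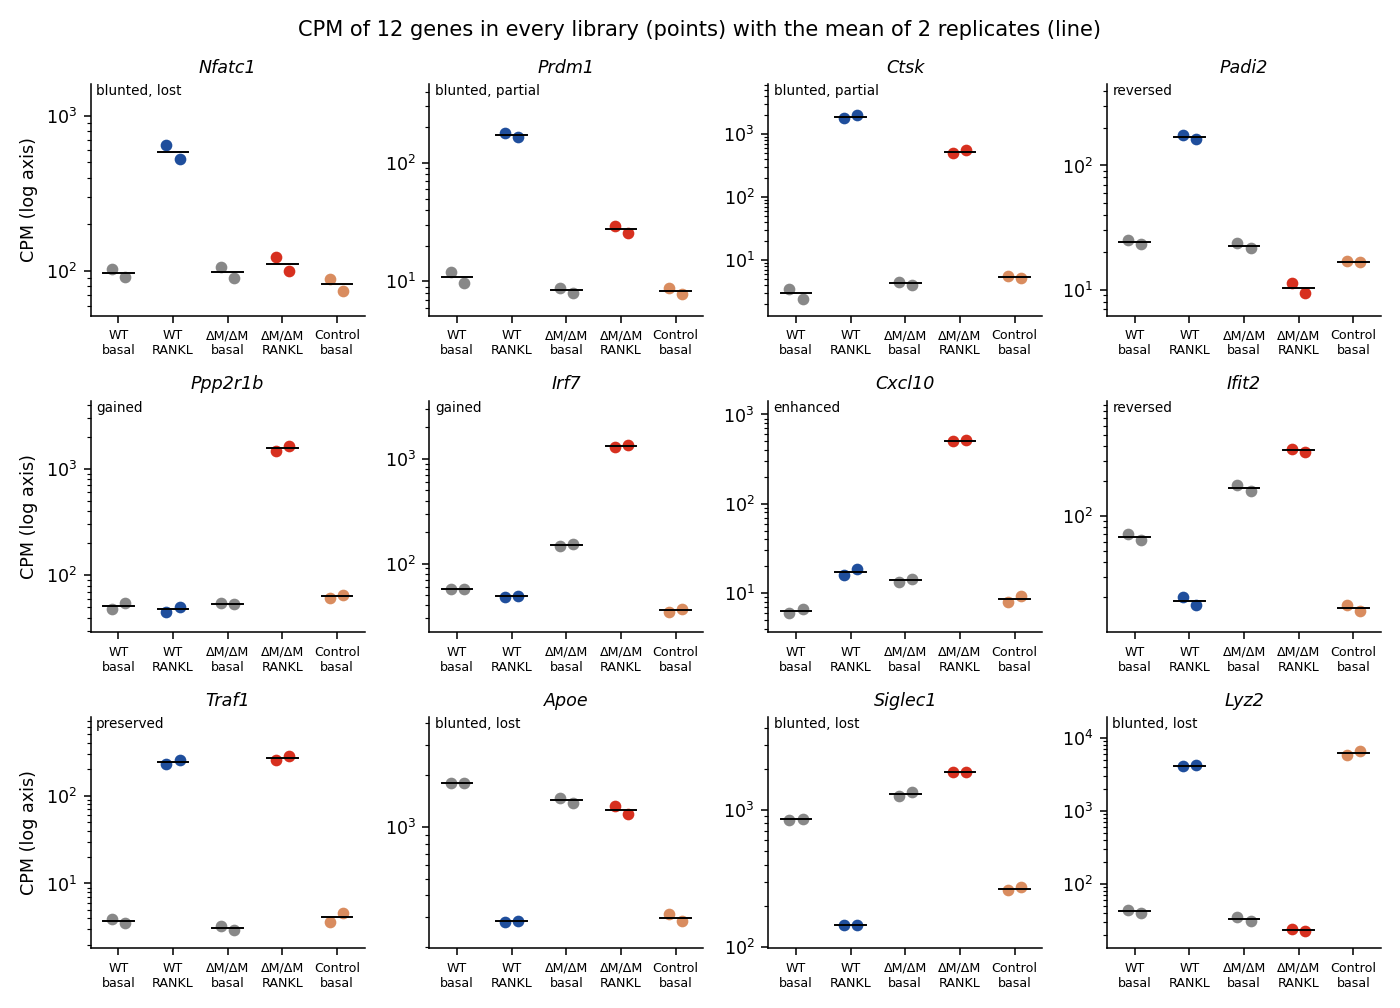
CPM of 12 genes (log y axis) in each library of WT, *Mir182*ΔM/ΔM and Control cells, 1 point a library. *Nfatc1*, *Prdm1* and *Padi2* are highest in the WT RANKL libraries, *Ppp2r1b*, *Irf7* and *Cxcl10* in the *Mir182*ΔM/ΔM RANKL libraries, and the RANKL libraries of *Traf1* overlap.

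The lost inductions with the largest interactions were *Lyz2*, *Chst11*, *Sema3d* and *Celsr1*. *Lyz2* had an interaction of -7.10, which became 0.076 with Control basal. *Chst11*, a chondroitin sulfotransferase, was at 3.85 and 3.21 CPM in WT basal, 67.4 and 64.6 in WT RANKL, 7.36 and 5.30 in *Mir182*ΔM/ΔM basal libraries, and 6.93 and 5.74 after RANKL in *Mir182*ΔM/ΔM. WT RANKL alone was above 10 CPM. *Sema3d*, a secreted semaphorin, was at 0 CPM in both libraries in WT basal, 15.3 and 13.2 in WT RANKL, 0 in both in *Mir182*ΔM/ΔM basal libraries, and 0.164 and 0.0787 after RANKL in *Mir182*ΔM/ΔM, and *Celsr1*, an atypical cadherin, reached 12.6 and 14.8 CPM in WT RANKL and 0.164 and 0.354 in *Mir182*ΔM/ΔM RANKL. Interactions of the 3 genes were -3.88, -3.76 and -3.63, and with Control basal -2.84, -3.76 and -3.50.

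In the partly kept inductions, *Cyp2s1*, a cytochrome P450, was at 0.153 and 0.0401 CPM in WT basal, 106 and 96.9 in WT RANKL, 0.148 and 0.224 in *Mir182*ΔM/ΔM basal libraries, and 6.01 and 5.51 after RANKL in *Mir182*ΔM/ΔM. *Akap6*, an anchoring protein for protein kinase A, was at 0.52 and 0.361 CPM in WT basal, 225 and 214 in WT RANKL, 0.296 and 0.299 in *Mir182*ΔM/ΔM basal libraries, and 19.5 and 17.9 after RANKL in *Mir182*ΔM/ΔM. It was thus induced by 7.26 in WT and by 3.93 in *Mir182*ΔM/ΔM cells on the log2 scale. *Rufy4*, a protein of vesicle traffic, had an interaction of -3.26. These 3 stayed in their class with Control basal.

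*Padi2* (chr4:140906344-140952586, plus strand), a peptidylarginine deiminase, was the single gene induced in WT and repressed in *Mir182*ΔM/ΔM cells. Its values were 25.2 and 23.5 CPM in WT basal, 176 and 162 in WT RANKL, 23.6 and 21.6 in *Mir182*ΔM/ΔM basal libraries, and 11.2 and 9.33 after RANKL in *Mir182*ΔM/ΔM. The WT RANKL libraries were the highest and the *Mir182*ΔM/ΔM RANKL libraries the lowest of the 8. Its interaction was -3.82 ± 0.083 (SE, adjusted p = 7.90e-19), and -4.32 with Control basal.

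*Ciita* and the class II genes *H2-Aa*, *H2-Ab1* and *H2-Eb1* lost their induction in *Mir182*ΔM/ΔM cells, while *Cd74*, the invariant chain, kept it, with log2 responses of 2.26 in WT and 1.72 in *Mir182*ΔM/ΔM cells. *H2-DMa* and *H2-DMb1*, which help load peptides, were not induced 2-fold in WT. *H2-Aa*, *H2-Eb1*, *Cd74* and the *H2-DM* genes were chosen after their values were seen. *Ciita*, the activator of class II transcription, was at 2.90 and 2.85 CPM in WT basal, 18.4 and 20.9 in WT RANKL, 2.44 and 2.28 in *Mir182*ΔM/ΔM basal libraries, and 2.36 and 2.91 after RANKL in *Mir182*ΔM/ΔM. *H2-Ab1*, a class II β chain, was at 13.2 and 14.6 CPM in WT basal, 49.9 and 53.9 in WT RANKL, 18 and 18.4 in *Mir182*ΔM/ΔM basal libraries, and 20.1 and 19 after RANKL in *Mir182*ΔM/ΔM. In both genes WT RANKL stood apart from the other 3 groups, and the interactions were -2.30 ± 0.16 (SE, adjusted p = 8.37e-11) and -1.73 ± 0.098 (SE, adjusted p = 4.20e-12). Of 10 class II and costimulation genes 7 were lower and 2 higher, median -1.45, also with TMM factors, and Control basal gave 8 and 2. The costimulator *Cd40* was higher by 2.35, at 21.8 and 25.5 CPM in WT basal, 4.31 and 5.87 in WT RANKL, 23.2 and 29.7 in *Mir182*ΔM/ΔM basal libraries, and 28.9 and 37.7 after RANKL in *Mir182*ΔM/ΔM, and *Cd80* by 0.59. With Control basal *Cd40* was higher by 0.95 and *Cd80* by 0.68.

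Mitochondrial respiratory genes were lower in the interaction. Of 72 oxidative phosphorylation subunits 69 were lower and none higher, median -0.57, and with TMM factors 54 were lower and 1 higher, median -0.40. Control basal gave 56 and 2 with a median of -0.31, and 25 were lower without the replicate block. Their median response was 0.76 in WT and 0.22 in *Mir182*ΔM/ΔM cells. *Sdhb*, the iron-sulfur subunit of complex II, was at 91.8 and 106 CPM in WT basal, 205 and 229.6 in WT RANKL, 89.9 and 106 in *Mir182*ΔM/ΔM basal libraries, and 90.2 and 103 after RANKL in *Mir182*ΔM/ΔM. Both WT RANKL libraries were above the other 6, which overlapped. *Cyc1*, cytochrome c1, was induced by 1.93 in WT and 0.86 in *Mir182*ΔM/ΔM cells. Of 14 glycolysis genes 9 were higher and 2 lower, with *Slc16a3*, the lactate exporter, higher by 0.77 and *Pgk1* by 0.44, and *Hk1*, a hexokinase, lower, with -0.23, which was -0.066 and no longer called with TMM factors. Control basal gave 12 and 1.

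**Figure D4:**
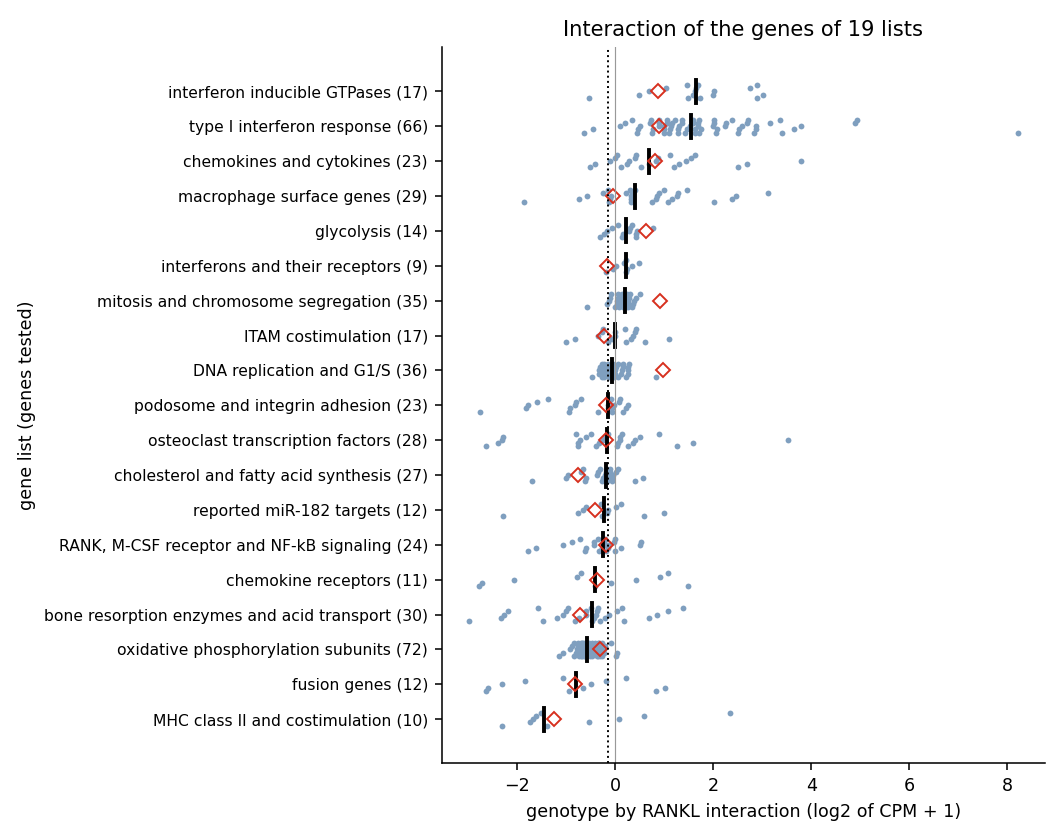
Interaction (log2, x axis) of each gene in 19 gene lists (rows). Black bars are the list medians, red diamonds the medians with Control basal, and the dotted line is the median of all genes, -0.15. The interferon lists lie at medians of 1.55 and 1.66, and fusion, MHC class II and respiratory genes lie below the line.

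Interferon-response genes were induced by RANKL in *Mir182*ΔM/ΔM cells and mostly not in WT cells. Of 66 type I interferon response genes 63 were higher and 2 lower in the interaction, median 1.55, and TMM factors gave 64 and 2. In *Mir182*ΔM/ΔM cells RANKL induced 42 of them 2-fold, while in WT cells it induced 2 and repressed 10. With Control basal 59 were higher and 4 lower, and the median was 0.89. The list holds genes that the study picked from these libraries, and it is not independent evidence of the direction. Among 17 interferon-inducible GTPases 16 were higher and 1 lower, median 1.66, with 13 and 2 with Control basal. Both lists with the interferons and receptors held 81 genes tested, and 42 of these were among the 148 gained inductions, which is 51.9% of the lists and 28.4% of the class, whereas the lists are 0.694% of all genes tested. With Control basal the gained inductions numbered 292. They held 24 of the 66 type I genes and 6 of the 17 GTPases, against 32 and 11 with WT basal. Genes in both lists, such as *Mx1*, count in each.

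*Irf7* (chr7:141262706-141266481, minus strand), the factor that amplifies interferon production, was at 57.9 and 57.4 CPM in WT basal, 47.6 and 49.7 in WT RANKL, 147 and 156 in *Mir182*ΔM/ΔM basal libraries, and 1297 and 1355 after RANKL in *Mir182*ΔM/ΔM. *Mir182*ΔM/ΔM cells were above WT already without RANKL, and the *Mir182*ΔM/ΔM RANKL libraries were the highest by far. The interaction was 3.36 ± 0.049 (SE, adjusted p = 7.53e-22), the baseline difference 1.38 and the difference after RANKL 4.74. *Ifit1*, which binds foreign RNA, was at 31.3 and 25.7 CPM in WT basal, 18.4 and 18.8 in WT RANKL, 81.7 and 71.6 in *Mir182*ΔM/ΔM basal libraries, and 254 and 231 after RANKL in *Mir182*ΔM/ΔM, and *Mx1*, an antiviral GTPase, at 16.1 and 17.8 CPM in WT basal, 7.86 and 9.32 in WT RANKL, 53.5 and 60.6 in *Mir182*ΔM/ΔM basal libraries, and 116 and 134 after RANKL in *Mir182*ΔM/ΔM. In WT both were lower after RANKL and in *Mir182*ΔM/ΔM cells higher. Their interactions were 2.23 ± 0.079 (SE, adjusted p = 2.35e-15) and 2.02 ± 0.079 (SE, adjusted p = 1.19e-14), and 0.74 and 0.65 with Control basal, where neither was called as gained.

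*Slfn4* and *Slfn1*, members of the interferon-inducible schlafen family, and *Ly6a*, which encodes the surface antigen Sca-1, gained the most after *Ppp2r1b*. *Slfn4* was at 3.06 and 3.61 CPM in WT basal, 1.60 and 1.48 in WT RANKL, 9.69 and 10.4 in *Mir182*ΔM/ΔM basal libraries, and 171 and 216 after RANKL in *Mir182*ΔM/ΔM. *Ly6a* was at 1.65 and 1.96 CPM in WT basal, 2.91 and 3.35 in WT RANKL, 6.33 and 10.6 in *Mir182*ΔM/ΔM basal libraries, and 249 and 328 after RANKL in *Mir182*ΔM/ΔM. The *Mir182*ΔM/ΔM RANKL libraries of both were far above the other 6. Interactions were 4.90 ± 0.13 (SE, adjusted p = 3.43e-17) and 4.40 ± 0.15 (SE, adjusted p = 9.14e-16), and *Slfn1* had 3.64. Among GTPases, *Gbp6* was at 0.336 and 0.441 CPM in WT basal, 1.04 and 0.864 in WT RANKL, 1.07 and 0.858 in *Mir182*ΔM/ΔM basal libraries, and 22 and 20.8 after RANKL in *Mir182*ΔM/ΔM and *Iigp1* at 4.40 and 3.53 CPM in WT basal, 2.12 and 1.91 in WT RANKL, 16.6 and 13 in *Mir182*ΔM/ΔM basal libraries, and 73.1 and 67.8 after RANKL in *Mir182*ΔM/ΔM. *Gbp8* was the exception, with 0.642 and 0.882 CPM in WT basal, 7.98 and 8.39 in WT RANKL, 0.777 and 0.933 in *Mir182*ΔM/ΔM basal libraries, and 5.55 and 5.78 after RANKL in *Mir182*ΔM/ΔM, a preserved induction. *Ifitm1* was among the lower genes of the interferon list, with an interaction of -0.64.

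*Ppp2r1b* (chr9:50845301-50894229, plus strand), a scaffold subunit of protein phosphatase 2A and no interferon-response gene of the lists, had the largest gained induction. It was at 48.1 and 55.5 CPM in WT basal, 45.7 and 50.4 in WT RANKL, 54.5 and 53.8 in *Mir182*ΔM/ΔM basal libraries, and 1470.1 and 1651 after RANKL in *Mir182*ΔM/ΔM. The *Mir182*ΔM/ΔM RANKL libraries were the only ones above 100 CPM, and the other 6 overlapped. Its interaction was 4.93 ± 0.062 (SE, adjusted p = 8.51e-23) and 5.21 with Control basal.

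The ligand and its receptors stand at the head of the pathway. *Ifnb1*, interferon-β, was at 0 in the 4 WT libraries, while *Mir182*ΔM/ΔM cells held 0.037 and 0.0746 CPM without and 0.0985 and 0.197 with RANKL, too low to be tested. *Ifnar1* was at 281 and 265 CPM in WT basal, 279 and 271 in WT RANKL, 253 in both in *Mir182*ΔM/ΔM basal libraries, and 328 and 319 after RANKL in *Mir182*ΔM/ΔM and *Ifnar2* at 159 and 143 CPM in WT basal, 103 and 93.7 in WT RANKL, 139.8 and 133 in *Mir182*ΔM/ΔM basal libraries, and 128 and 122 after RANKL in *Mir182*ΔM/ΔM, with interactions of 0.34 and 0.49. Of 9 interferon and receptor genes tested 4 were higher and 1, *Jak1*, lower, with -0.19, which was -0.027 with TMM factors. With Control basal 3 were higher and 5 lower. *Eif2ak2* (chr17:78852564-78882573, minus strand), the kinase PKR that senses double-stranded RNA, was at 121 and 103 CPM in WT basal, 90 and 80.5 in WT RANKL, 171 and 156 in *Mir182*ΔM/ΔM basal libraries, and 255 and 246 after RANKL in *Mir182*ΔM/ΔM. The *Mir182*ΔM/ΔM RANKL libraries were the highest and those of WT RANKL the lowest. Its interaction was 1.0 ± 0.056 (SE, adjusted p = 3.43e-12), with a *Mir182*ΔM/ΔM response of 0.61, under 2-fold, so that it was in no response class.

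Chemokines and cytokines moved partly with the interferon genes. *Cxcl10* (chr5:92346638-92348889, minus strand), a T cell chemoattractant, was at 5.96 and 6.69 CPM in WT basal, 15.9 and 18.5 in WT RANKL, 13.4 and 14.5 in *Mir182*ΔM/ΔM basal libraries, and 499 and 517 after RANKL in *Mir182*ΔM/ΔM. It rose in both genotypes and most in *Mir182*ΔM/ΔM cells. Its interaction was 3.78 ± 0.084 (SE, adjusted p = 1.01e-18), the largest among enhanced inductions. *Cxcl9*, its relative, gained an induction at 0.214 and 0.321 CPM in WT basal, 0.359 and 0.432 in WT RANKL, 0.629 and 0.56 in *Mir182*ΔM/ΔM basal libraries, and 11.8 and 8.89 after RANKL in *Mir182*ΔM/ΔM. Of 23 chemokines and cytokines tested 15 were higher and 2 lower, median 0.69, and with Control basal 15 and 4. The lower ones were *Vegfa*, with -0.51, and *Ccl9*, with -0.40. Chemokine receptors were divided, with 4 higher and 6 lower of 11. *Ccr1* lost its induction, at 22.5 and 20.2 CPM in WT basal, 189 and 190.4 in WT RANKL, 23 and 21.8 in *Mir182*ΔM/ΔM basal libraries, and 28.5 and 30.3 after RANKL in *Mir182*ΔM/ΔM, and *Ccr2* gained a repression, at 66.5 and 65.6 CPM in WT basal, 60.1 and 56.7 in WT RANKL, 64.9 and 64.3 in *Mir182*ΔM/ΔM basal libraries, and 7.36 and 7.59 after RANKL in *Mir182*ΔM/ΔM. For *Ccr2* Control basal was at 238 and 227 CPM, so that with it the interaction was -0.97 and the gene was no longer in that class. The interaction of *Ccr1* went from -2.71 to -0.95 with Control basal, under 2-fold, so that it no longer counted as blunted. *C5ar1*, the C5a receptor, was repressed in WT alone, at 532 and 475 CPM in WT basal, 161 and 144 in WT RANKL, 609.9 and 563 in *Mir182*ΔM/ΔM basal libraries, and 528 and 469 after RANKL in *Mir182*ΔM/ΔM.

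Other enhanced inductions were of genes near 0 at baseline. *Tmem26*, a membrane protein, was at 0.275 and 0.481 CPM in WT basal, 3.23 and 3.31 in WT RANKL, 0.333 and 0.299 in *Mir182*ΔM/ΔM basal libraries, and 39.3 and 35.6 after RANKL in *Mir182*ΔM/ΔM. *Zbtb32*, a zinc finger repressor, reached 1.48 and 2.30 CPM in WT RANKL and 27.9 and 24.4 in *Mir182*ΔM/ΔM RANKL, and *Cd207*, langerin, 1.20 and 1.91 and 18.8 and 22.4. With Control basal, *Zbtb32* stayed enhanced while *Tmem26* counted as gained and *Cd207* as reversed. Of the 39 enhanced inductions 20 kept the class and direction with Control basal.

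A further 7 genes were repressed in WT and induced in *Mir182*ΔM/ΔM cells. *Ifi44*, an interferon-inducible gene, was at 66.4 and 62.9 CPM in WT basal, 2.83 and 2.56 in WT RANKL, 12.7 and 11.4 in *Mir182*ΔM/ΔM basal libraries, and 226 and 206 after RANKL in *Mir182*ΔM/ΔM. WT basal was above WT RANKL, and *Mir182*ΔM/ΔM basal was far below *Mir182*ΔM/ΔM RANKL, so that the order of the treatments was opposite. Its interaction was 8.21 ± 0.084 (SE, adjusted p = 2.31e-24). Control basal held 1.31 and 1.13 CPM, below WT RANKL, and with it the interaction was 3.32 and the class gained. *Ifit2*, a relative of *Ifit1*, was at 69.6 and 62.5 CPM in WT basal, 20.3 and 17.1 in WT RANKL, 186 and 165 in *Mir182*ΔM/ΔM basal libraries, and 381 and 357 after RANKL in *Mir182*ΔM/ΔM, with an interaction of 2.84 and of 0.89 with Control basal. *Gm4951* and *Ifi205* had interactions of 2.58 and 3.19, and the replicates of *Ifi205* in *Mir182*ΔM/ΔM RANKL were 27.4 and 17.2 CPM. Of the 7 genes 1 kept this class with Control basal.

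Several blunted repressions changed with the basal group too. *Siglec1*, a macrophage sialic acid receptor and interferon-response gene, was at 855 and 863 CPM in WT basal, 144 in both in WT RANKL, 1273 and 1367 in *Mir182*ΔM/ΔM basal libraries, and 1919.7 and 1912 after RANKL in *Mir182*ΔM/ΔM, while Control basal was at 260.5 and 271 CPM. Its interaction was 3.11 ± 0.042 (SE, adjusted p = 2.32e-22) and 1.42 with Control basal. *Apoe*, apolipoprotein E, was at 1791 and 1790.0 CPM in WT basal, 282 and 286 in WT RANKL, 1467 and 1379 in *Mir182*ΔM/ΔM basal libraries, and 1317 and 1184 after RANKL in *Mir182*ΔM/ΔM and at 311 and 285 in Control basal, near the WT RANKL level. Its interaction of 2.47 became -0.12 with Control basal. *Hal*, histidine ammonia-lyase, was at 169.6 and 172 CPM in WT basal, 0.758 and 0.972 in WT RANKL, 242 and 257 in *Mir182*ΔM/ΔM basal libraries, and 29.7 and 31.8 after RANKL in *Mir182*ΔM/ΔM and 1.12 and 0.945 in Control basal, and its sign turned, from 3.55 to -2.85. *Cd5l*, a secreted macrophage protein, kept the sign, with 2.95 and 0.84, while *Padi4* went from 2.54 to -0.078 and *Rab6b* from 2.52 to -1.23. *Ctnnd2*, δ-catenin, stayed a lost repression, at 13.6 and 11.3 CPM in WT basal, 1.96 and 1.98 in WT RANKL, 21.5 and 18.7 in *Mir182*ΔM/ΔM basal libraries, and 35.8 and 28.2 after RANKL in *Mir182*ΔM/ΔM. *Ifi44l* was at 19.8 and 25 CPM in WT basal, 0 in both in WT RANKL, 0 and 0.0373 in *Mir182*ΔM/ΔM basal libraries, and 0.23 and 0.433 after RANKL in *Mir182*ΔM/ΔM and at 0 in both Control basal libraries, where it was not tested.

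Among 80 lost repressions, 34 genes had a Control basal level already at least 2-fold below WT basal, as did 16 of 20 partly blunted ones, against 443 of all 11673 genes. It was 144 of 452 in preserved repressions. Control basal was at least 2-fold above WT basal in 55 of 311 lost, 34 of 122 partial and 153 of 440 preserved inductions, against 628 of all genes. All these classes were chosen on a difference from WT basal, so the shares are a description. With Control basal 25 of the 80 and 1 of the 20 kept their class and direction. For lost and partial inductions it was 176 of 311 and 84 of 122. Of 29 macrophage surface genes 20 were higher and 5 lower in the interaction, median 0.41, and with Control basal 13 were higher and 13 lower, median -0.036. *Axl*, a receptor for apoptotic cells, had -0.73, which turned to 1.13 with Control basal.

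Some genes were turned down further in *Mir182*ΔM/ΔM cells, as enhanced or gained repressions. *Atp2a3*, a calcium pump of the endoplasmic reticulum, was at 125 and 139 CPM in WT basal, 43.3 and 45.2 in WT RANKL, 112 and 124 in *Mir182*ΔM/ΔM basal libraries, and 8.84 and 9.05 after RANKL in *Mir182*ΔM/ΔM. *F13a1*, the A subunit of factor XIII, was at 378 and 359 CPM in WT basal, 33.7 and 31.2 in WT RANKL, 249.9 and 232 in *Mir182*ΔM/ΔM basal libraries, and 4.99 and 4.84 after RANKL in *Mir182*ΔM/ΔM. Their RANKL groups did not overlap, and the interactions were -2.03 ± 0.069 (SE, adjusted p = 1.15e-15) and -1.89 ± 0.061 (SE, adjusted p = 5.40e-16). *Cd33*, a sialic acid receptor, had -1.86, and *Chil3*, a chitinase-like protein of macrophages, -2.03. *Cyfip2*, part of the actin-regulating WAVE complex, was at 79.2 and 71.5 CPM in WT basal, 77.7 and 74.8 in WT RANKL, 85 and 79.8 in *Mir182*ΔM/ΔM basal libraries, and 20.7 and 17.9 after RANKL in *Mir182*ΔM/ΔM, with a WT response of 0.018. *Pbxip1* and *Nckap5l* likewise fell in *Mir182*ΔM/ΔM cells, with interactions of -2.09 and -1.94.

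Lipid synthesis genes were repressed in both genotypes. Of 27 cholesterol and fatty acid genes, 14 were preserved repressions. RANKL lowered 19 of them 2-fold in WT and 20 in *Mir182*ΔM/ΔM cells, and the medians were -1.36 and -1.73. In the interaction 16 were lower and 2 higher with CPM, median -0.18, and 9 and 3 with TMM factors, median -0.033. Control basal gave 25 lower and 1 higher with a median of -0.76. *Scd2*, a fatty acid desaturase, was lower, with -1.70, and *Msmo1*, a sterol oxidase, higher by 0.56. The strongest preserved repressions were *Ednrb*, the endothelin B receptor, at 562 and 504 CPM in WT basal, 28.9 and 24.4 in WT RANKL, 369 and 331 in *Mir182*ΔM/ΔM basal libraries, and 11 and 9.36 after RANKL in *Mir182*ΔM/ΔM, *Slc40a1*, the iron exporter ferroportin, and *Tmem154*. *Ednrb* was lower in *Mir182*ΔM/ΔM cells at both times, with log2 differences of -0.60 at baseline and -1.31 after RANKL, and with Control basal, at 18.4 and 15.9 CPM, its repression counted as gained.

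Cell cycle genes changed their counts with the scaling and with the basal group. Of 35 mitosis genes 19 were higher and 2 lower, median 0.20, with TMM factors 30 and 1, and with Control basal 35 and none. Of 36 DNA replication genes 7 were higher and 12 lower, median -0.059, while TMM factors gave 14 and 3 with a median of 0.10 and Control basal 35 and none. The sign of the replication median turns with TMM factors, whose shift of all genes is as large. With Control basal it was 0.98. *Ccnd1*, cyclin D1, was at 361 and 337 CPM in WT basal, 374 and 360.0 in WT RANKL, 627 and 588 in *Mir182*ΔM/ΔM basal libraries, and 1179 and 1095 after RANKL in *Mir182*ΔM/ΔM, with an interaction of 0.83 and a baseline difference of 0.80.

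The interaction equals the genotype difference after RANKL minus that at baseline, and both parts are given. At baseline *Mir182*ΔM/ΔM cells were at least 2-fold higher in 57 genes (0.488% of those tested) and lower in 20 (0.171%), and after RANKL in 423 (3.62%) and 686 (5.88%). Lost inductions had a median genotype difference of 0.03 at baseline and -1.45 after RANKL, and partial ones 0.039 and -1.85. Gained inductions differed already, by 0.28 at baseline and 2.02 after RANKL, and 26 of the 148 were 2-fold above WT before RANKL. Type I interferon genes had medians of 0.69 and 2.03.

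**Figure D5:**
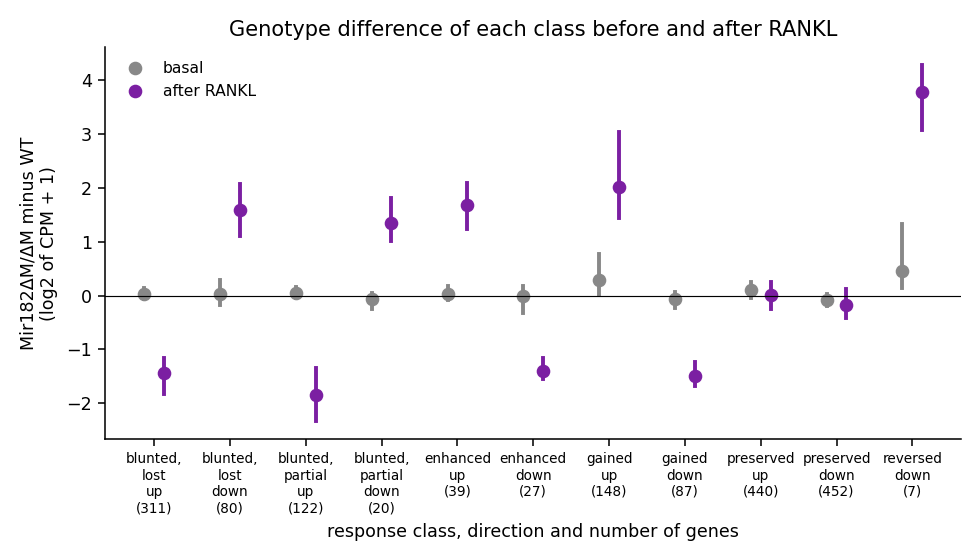
Median (point) and quartiles (bar) of the log2 difference between *Mir182*ΔM/ΔM and WT cells at baseline (grey) and after RANKL (purple) for each class. The baseline medians lie close to 0 for the blunted classes, and reversed repression has 0.46 at baseline and 3.78 after RANKL.

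Promoter sequence is a property that the classes did not use. The ISRE core, GAAA repeated after any 2 bases, was searched on both strands from 250 bases before to 50 after the start site of RefSeq promoters (GRCm38.p6), which were matched by name for 8993 of the genes tested. It was found in 360 of them (4.0%). Among gained inductions 32 of 115 promoters held it (27.8%), among lost repressions 8 of 51 (15.7%), and among reversed repressions 2 of 5. Lost and partial inductions held it in 1.39% and 1.18%, and preserved inductions and repressions in 3.61% and 3.52%. Of the type I interferon list 21 of 52 promoters held it (40.4%). Some holders are near-identical neighbours, such as *Oas1a* and *Oas1g* or *Ifit3* and *Ifit3b*, whose promoters share windows and whose reads the counting could have split.

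Windows of 30 bases around the core are printed below for some gained, enhanced and reversed genes and for *Eif2ak2*, which was in no class. They run 5′ to 3′ on the gene's strand, with the core or its reverse complement in capitals. Other holders of the core are not printed, among them *Stat2*, a lost repression, *Fosl2*, a partly blunted induction, *Vegfa*, a preserved repression, and *Bub1b*, a mitosis gene. *Isg15*, *Igtp* and *Bst2* were chosen for display after their values were seen. The windows lie at chr19:34640794-34640823 (*Ifit1*), chr4:156200871-156200900 (*Isg15*, minus strand), chr11:58199512-58199541 (*Igtp*), chr5:92349083-92349112 (*Cxcl10*, minus strand), chr8:71537577-71537606 (*Bst2*, minus strand) and chr17:78882535-78882564 (*Eif2ak2*, minus strand).
Ifit1, gained: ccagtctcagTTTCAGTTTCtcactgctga
Isg15, gained: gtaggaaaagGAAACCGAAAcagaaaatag
Igtp, gained: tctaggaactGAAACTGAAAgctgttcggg
Cxcl10, enhanced: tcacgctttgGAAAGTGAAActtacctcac
Bst2, reversed: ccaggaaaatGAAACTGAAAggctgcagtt
Eif2ak2, no class: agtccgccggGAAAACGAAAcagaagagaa

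A match describes these letters and is no measured binding site. The AP-1 core TGANTCA, counted whether or not it overlapped another motif, was in 6.38% of all promoters. It was in 18 of 115 gained (15.7%), 6 of 33 enhanced (18.2%) and 11 of 85 partly blunted inductions (12.9%), and in 3 of 16 partly blunted repressions. The NF-κB sequence, GGGA and TTTCC around any base, was in 0.556% of all promoters. It was in 3 of 115 gained (2.61%) and 2 of 85 partly blunted inductions (2.35%), which are few genes.

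The seed match TTGCCAA of miR-182-5p, to bases 2 to 8, was in the 3′ UTR of 12.3% of 10887 genes with an annotated one. Lost inductions held it in 52 of 292 (17.8%), with a median 3′ UTR of 1486 bases against 1174 in all, and gained inductions in 12.2%. The type I interferon list held it in 3.03%. The shorter match to bases 2 to 7, TGCCAA, was in 33.8% of all genes, 41.8% of lost and 33.8% of gained inductions. In its 3′ UTR of 2575 bases *Eif2ak2* held 2 of the shorter matches and 0 of the longer. Those of *Eif2ak2*, a target examined by the study, are printed with the match in capitals. *Prdm1* had 2 of the longer matches, printed because *Prdm1* was lower in *Mir182*ΔM/ΔM RANKL than in WT RANKL.
Eif2ak2, first match: cactattgtggaTGCCAAgacattcatgct
Eif2ak2, second match: aaccgaggcttcTGCCAAatcttccctgtc
Prdm1, first match: gaggttttgataTTGCCAAagtcatgtggt
Prdm1, second match: gacaggaaggctTTGCCAAcctgtctccca
Of 12 reported miR-182 targets tested 5 were lower and 2 higher in the interaction, median -0.23, with TMM factors 4 and 3, and with Control basal 7 and 4. The shares with CPM are near those of all genes, 42.8% lower and 16.1% higher. The higher ones with CPM were *Eif2ak2* and *Rasa1*, a Ras GTPase activator, with 0.60. *Mitf*, the transcription factor of osteoclasts and pigment cells, was lower, with -0.75.

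Overexpression of miR-182 in basal BMMs is a readout that the classes did not use. *Mir182*mTg and Control libraries differed in 12 genes higher (0.0995% of 12063 tested) and 19 lower (0.158%) in edgeR without a replicate block, and in 841 (6.97%) and 994 (8.24%) with the block. Of the 148 gained inductions 118 were tested, with a median log2 difference of -0.17 against -0.0026 for all genes. Without the block 1 of them was called, and with the block 13 were higher and 39 lower. With the block 16 of 75 lost repressions were higher and 22 lower, and of 18 partial ones 3 and 5. Type I interferon genes had a median of -0.23, and with the block 1 was higher and 39 lower of 63. Without the block 1 of the 63 was called. Class II genes had a median of 0.49, with 9 of 10 higher with the block and 0 called without it. Neutrophil markers, 7 tested, were all higher with the block, median 1.34, in the same libraries, and their part in these values was not tested. Lost and partial inductions had medians of 0.035 and 0.082. With the block 35 of 250 lost inductions were higher and 26 lower, and of 86 partial ones 20 and 5.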

How the data were processed

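For the 8 WT and *Mir182*ΔM/ΔM libraries the authors deposited CPM, each read count divided by the library total of the genes listed. For replicate 1 the deposited files also hold RPKM, which was not used. For the Control and *Mir182*mTg libraries the deposited values are raw read counts per gene, from which CPM was computed the same way. The submitters' processing notes name TopHat, Cufflinks, HISAT2, HTSeq and edgeR, and the methods give mm10 and poly-A selection, while the labels give poly-A RNA for replicate 1 and total RNA for replicate 2. All CPM values were whole multiples of 1 read within 0.02 reads, so reads could be recovered.

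The contrast was fitted with limma (3.58.1, R 4.3.3, eBayes with a trend) on log2(CPM + 1), with 4 groups and the replicate number as a block. P-values were adjusted by Benjamini-Hochberg over the 11673 genes, with a threshold of 0.05, and 27 names turned into dates were left out. Same-numbered samples deviated together (correlations of 0.69 to 0.76 over 6 pairs of groups), and the number was taken as pairing them. *Mir182*mTg and Control counts were compared with edgeR (4.0.16, quasi-likelihood, TMM). Alternatives were TMM factors, quantile normalization, edgeR and DESeq2 (1.42.0) on recovered reads, other filters and pseudocounts, other fold thresholds, no block, Control basal in place of WT basal, and each sample left out. Fitting the *Mir182*ΔM/ΔM libraries alone was added after seeing the data. The code was tested on simulated data.

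Named genes were those the study names, the 4 largest interactions per class and direction with at least 10 CPM in a group (3 of the strongest for preserved), up to 2 per list and direction, checks of the samples, and the genes next to the threshold, of which 3 are not reported here. The classes, members and lists were chosen with earlier results of these data known. Gene coordinates are from GENCODE vM21 (GRCm38), and promoter and miRNA sequences from RefSeq.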

Additional observations from a re-analysis of the deposited data

Results flagged for a closer look

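The RANKL response differed between the genotypes by the test of the difference itself in 1885 genes higher and 4993 lower, at an adjusted p under 0.05 in limma. Among single genes with such a difference, *Lyz2* had an interaction of -7.10, *Ifi202b* of 6.35, *Ppp2r1b* of 4.93, *Padi2* of -3.82 and *Ifi44* of 8.21 on the log2 scale. With Control basal in place of WT basal the values of *Lyz2* and *Ifi202b* were 0.076 and -0.34, and those of *Ppp2r1b*, *Padi2* and *Ifi44* were 5.21, -4.32 and 3.32. In libraries outside the contrast, *Mir182* transcripts reached 4.4 CPM in *Mir182*mTg BMMs, while Control libraries were at 0. With 2 samples a group, no sample could be tested against its group.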

How the results depend on the processing

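The limits of these results lie mainly in the basal WT and WT RANKL libraries, in the scaling and in 2 replicates a group. Read depth limits only genes near 3 reads. The interactions of *Nfatc1*, *Prdm1*, *Ctsk*, *Irf7*, *Ppp2r1b* and *Padi2* kept their direction and call in every alternative run. Each of these runs still used a WT RANKL library, so they cannot address the origin of those libraries. The cause of the changes given here was not tested.

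With TMM factors the interaction had 3107 genes higher and 2933 lower, with 153 blunted repressions and 14 reversed genes. Quantile normalization gave 3161 lower, 166 blunted repressions and 18 reversed. edgeR on recovered reads gave 3039 higher and 2785 lower, 552 higher at 2-fold, 1379 genes repressed in WT, 104 higher and 46 lower at baseline, and 641 higher after RANKL, with 221 blunted repressions, 42 reversed, 126 enhanced and 136 gained repressions. DESeq2 gave 2010 lower, 1334 repressed in WT, 86 higher and 36 lower at baseline, 209 blunted repressions, 41 reversed and 106 enhanced. A pseudocount of 0.25 gave 34 lower at baseline, 20 reversed, 109 enhanced and 142 gained repressions. Requiring 1 CPM in all 8 samples left 379 lower at 2-fold, 12 lower at baseline, 421 lower after RANKL, 212 blunted inductions, 42 enhanced and 95 gained inductions, since fewer genes were tested.

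At 1.5-fold the classes held 995 blunted inductions, 284 blunted repressions, 74 reversed, 253 enhanced, 251 gained inductions, 282 gained repressions, 892 preserved inductions and 725 preserved repressions. At 3-fold they held 186, 33, 1, 13, 70, 18, 208 and 189 in that order.

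With Control basal in place of WT basal there were 3998 genes higher, 756 higher and 1019 lower at 2-fold, 400 higher and 366 lower at baseline, 158 blunted repressions, 48 reversed, 292 gained inductions, 326 gained repressions, 248 preserved inductions and 192 preserved repressions. The sign of *Tnfrsf11a* turned, to 0.89, as did that of 17 genes named by the rule, to -0.12 for *Apoe*, 1.13 for *Axl*, 0.29 for *Bub1b*, 0.26 for *Ccnb2*, 0.91 for *Cdt1*, -0.67 for *Gstt1*, -2.85 for *Hal*, -0.34 for *Ifi202b*, -0.65 for *Itgb3*, 0.076 for *Lyz2*, 0.64 for *Mcm7*, -0.036 for *Nfkbie*, -0.49 for *Nnt*, -0.078 for *Padi4*, 0.42 for *Pfkp*, -1.23 for *Rab6b* and 0.48 for *Uck2*. Of the other named genes 96 kept sign and side of the threshold, 4 lost the call and 1 passed it.

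Without the replicate block the pairing was ignored and the interaction was called for 871 genes higher and 2004 lower, and 102 of 119 named genes kept their call. With the block, the comparison of *Mir182*mTg and Control had 841 genes higher and 994 lower against 12 and 19. The block changed no count at 2-fold by over 1.5 times. The fit of the *Mir182*ΔM/ΔM libraries alone, chosen after seeing the data, changed no count of the RANKL response, since the fold changes stay the same in a balanced design.

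Leaving out each library in turn gave 1640 to 1853 genes higher and 4296 to 4902 lower, 354 to 366 and 648 to 661 at 2-fold, 1434 to 1477 induced and 812 to 821 repressed in WT, 947 to 971 and 890 to 914 in *Mir182*ΔM/ΔM cells, 55 to 59 and 20 to 23 at baseline, and 418 to 427 and 686 to 708 after RANKL. The classes held 428 to 446 blunted and 425 to 451 preserved inductions, 98 to 105 blunted and 427 to 446 preserved repressions, 7 to 10 reversed, 67 to 69 enhanced, 140 to 149 gained inductions and 83 to 90 gained repressions. For overexpression, 32 to 85 were higher and 24 to 80 lower, with 1 sample left in an arm, which is then taken to vary like the other arm.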

Other observations

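*Lyz1*, a lysozyme gene next to *Lyz2*, gained an induction in *Mir182*ΔM/ΔM cells, opposite to *Lyz2*. It was at 27.3 and 31.4 CPM in WT basal, 16.2 and 21 in WT RANKL, 29.2 and 33.5 in *Mir182*ΔM/ΔM basal libraries, and 113 and 134 after RANKL in *Mir182*ΔM/ΔM, with an interaction of 2.58 in limma and of 1.20 with Control basal. The *Mir182*ΔM/ΔM RANKL libraries lay above the other 6. The genes are close paralogs, and the counting could have split their reads.

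Neutrophil markers fell with RANKL 2-fold in both genotypes for all 7 genes tested, with median log2 responses of -1.76 in WT and -2.69 in *Mir182*ΔM/ΔM cells, and 6 of them were lower in the interaction. Stromal and osteoblast markers summed to 34 to 52.3 CPM in WT RANKL and 27.4 to 43 in *Mir182*ΔM/ΔM RANKL, ranges that overlap.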
